A study of Mus musculus with 2 samples.

Results

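The genes described here are the Eph receptors, their ephrin ligands, the teneurins, the latrophilins and the FLRT proteins, which act where cell surfaces touch. Members were taken by gene symbol from a list of families, without a threshold on their levels, and 32 of the 43346 genes quantified have a listed symbol. They comprise 9 EphA receptors, 5 EphB receptors, 5 ephrin-A ligands, 3 ephrin-B ligands, 3 latrophilins, 4 teneurins and 3 FLRT genes. Neural tube, the embryonic brain and spinal cord precursor, was dissected from healthy B6NCrl mouse embryos of both sexes at embryonic day 11.5. There was 1 group, with no mutant, treatment or second tissue. It held 2 biological replicates, and each was a pool, of 109 embryos for replicate 1 and 88 embryos for replicate 2. Total RNA longer than 200 bases was sequenced from 10 ng of input.

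Eph receptors are receptor tyrosine kinases that bind ephrins on a neighbouring cell, and contact most often ends in repulsion or in a boundary between the cells. Ephrin-A ligands are held in the membrane by a lipid anchor and bind mainly EphA receptors, whereas ephrin-B ligands cross the membrane and bind mainly EphB receptors. Ephrins can also signal back into their own cell, ephrin-A ligands through co-receptors. Epha4 binds ligands of both classes. Teneurins bind latrophilins, which are adhesion G protein-coupled receptors, and FLRT proteins bind latrophilins and Unc5 receptors. In the embryonic trunk these proteins steer motor axons into the limb and restrict the paths of neural crest cells.

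Replicate 1 held 27638068 expected counts and replicate 2 held 29166901, of which the 32 members took 0.167% and 0.162%. An expected count is an estimated number of reads, and 1 TPM, the unit of level scaled for transcript length and library size, stood for a median of 27 and 26 counts per gene. Of 40 marker genes of 8 cell classes, all 40 were detected at 1 TPM or more in both libraries, beside 59.9% of protein-coding genes. Since every class passed, detection alone could not check the tissue label. Neural progenitor markers summed to 1903 and 1974 TPM, and neuron markers to 1640 and 1880 TPM. Markers of other tissue were also present: endothelial markers summed to 113 and 118 TPM, mesenchymal markers to 589 and 530 TPM, muscle markers to 317 and 254 TPM, and surface ectoderm markers to 44.6 and 41.6 TPM. In bulk tissue, fewer cells of a type and less RNA per cell cannot be told apart. With 2 libraries no exact test can go below p = 0.5, so differences are set against the spread between the libraries and no p-value is given.

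Eph receptors are told apart as active or inactive kinases by their catalytic loop, where a histidine, arginine and aspartate triplet (HRD) stands in active enzymes. The following 8-codon stretches of coding DNA are shown because they separate the receptors in this way. They come from GENCODE M21 transcripts on GRCm38, are written 5′ to 3′ on the coding strand, and have the 3 codons at the HRD position in capitals.
Epha3 (chr16:63583481-63583504, minus strand): CACCGGGACcttgctgctcgcaac
Epha7 (chr4:28950452-28950475, plus strand): CACAGGGACcttgcagcgcgcaac
Epha4 (chr1:77382962-77382985, minus strand): CATCGAGACctggctgccaggaac
Ephb4 (chr5:137369806-137369829, plus strand): CACCGAGACctggctgctcggaac
Ephb2 (chr4:136659662-136659685, minus strand): CACCGTGACcttgctgctcgaaac
Epha10 (chr4:124914018-124914041, plus strand): CACCGGGGCcttgcagcccgccga
Ephb6 (chr6:41618664-41618687, plus strand): CACCGAGCActctcggcccgaagt
Of the 14 Eph receptors, 12 carried codons for histidine, arginine and aspartate, and in all 12 the 8 encoded amino acids were identical to those of Epha3. Epha10 and Ephb6, both known as receptors without kinase activity, had no aspartate codon there. They shared 6 and 5 of the 8 amino acids with Epha3.

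EphA receptors ranged from the most abundant member of all to genes below 1 TPM. Epha3, a receptor of axial motor neurons (ENSMUSG00000052504.6, chromosome 16, 63543534 to 63864175), had 66.97 TPM in replicate 1 and 66.70 TPM in replicate 2, or 66.8 ± 0.191 TPM (SD, n = 2). Its 6478 and 6657 expected counts gave it the highest level of the 32 genes, and its range did not overlap that of the next gene. Epha7, a receptor with a role in neural tube closure (ENSMUSG00000028289.8, chromosome 4, 28813131 to 28967499), had 44.75 and 47.34 TPM. Together these receptors held 73.0% and 70.6% of the summed EphA level.

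Epha4, which directs motor axons into the dorsal limb (ENSMUSG00000026235.10, chromosome 1, 77367185 to 77515088), had 18.04 and 20.73 TPM. Epha5, a receptor of topographic axon maps, had 16.43 and 18.43 TPM. The ranges of Epha4 and Epha5 overlapped each other, and both lay well below that of Epha7. Epha10, one of the receptors without the aspartate codon, had 3.09 and 2.90 TPM.

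Epha8, a receptor of midbrain axon mapping, had 1.37 and 1.99 TPM, and Epha2, a receptor of epithelia, had 1.25 and 1.97 TPM. Both stayed just above the detection threshold, which was 1 TPM in each library, and replicate 2 was the higher library for both. Epha6, a receptor of visual axon mapping, had 0.51 and 0.94 TPM, and Epha1, an epithelial receptor, had 0.56 and 0.63 TPM. These genes fell short of the threshold in both libraries, with 26 and 38 counts for Epha6 and 31 and 36 for Epha1. Surface ectoderm, an epithelium, had all 5 of its markers detected, led by Perp at 11.8 ± 0.905 TPM and Krt8 at 11.3 ± 0.163 TPM. Its part in the level of Epha1 and Epha2 was not tested.

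EphB receptors were all detected and lay closer together than the EphA receptors. Ephb4, the receptor of venous endothelium (ENSMUSG00000029710.11, chromosome 5, 137350109 to 137378669), led with 26.11 and 26.72 TPM. Ephb2, a receptor of commissural axons (ENSMUSG00000028664.10, chromosome 4, 136647539 to 136835988), had 16.20 and 16.03 TPM. Ephb3, which acts with Ephb2 in axon tracts, had 12.03 and 12.35 TPM, and these 3 ranges did not overlap. Ephb1, which turns retinal axons to the same side of the brain, had 8.92 and 8.83 TPM. Ephb6, the EphB receptor without the aspartate codon, had 8.11 and 8.54 TPM. Endothelial markers moved little between the libraries, with Cldn5 at 28.7 ± 1.77 TPM, Kdr at 22.8 ± 0.0495 TPM, Emcn at 21.7 ± 1.09 TPM and Pecam1 at 19.5 ± 0.424 TPM. Their part in the level of Ephb4 was not tested.

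Epha10 and Ephb6 together held 4.94 ± 0.0747% of summed Eph receptor TPM (SD, n = 2). Of that summed level, 77.6% in replicate 1 and 76.6% in replicate 2 lay on transcripts that contain the 3 HRD codons. The rest lay on those receptors and on transcripts of the other 12 receptors that lack the stretch. For Epha7, transcripts with the codons held 41.5% and 40.4% of the TPM of the gene. They took more of its expected counts, since TPM divides counts by length and short models gain. Of the models with the codons, ENSMUST00000029964 took 59.1% and 57.0% of counts and ENSMUST00000108191 took 8.12% and 9.76%. Epha3 has 1 transcript model in the deposited annotation, and that model has the codons. Its share of 100% in both libraries was therefore fixed in advance.

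Ephrin-A ligands were all detected, over a narrower range than their receptors. Efna5, a ligand graded across axon target fields (ENSMUSG00000048915.8, chromosome 17, 62604184 to 62881317), had 31.35 and 31.80 TPM. Efna2, which acts beside Efna5 in axon mapping (ENSMUSG00000003070.6, chromosome 10, 80179482 to 80190010), had 30.30 and 28.68 TPM. Efna3 had 24.53 and 27.80 TPM, and its range overlapped that of Ephb4. Efna4 had 16.77 and 16.26 TPM. Efna1, a ligand of vessels and epithelia, had the lowest level of the class at 12.36 and 10.89 TPM. The leading ligand held 27.2% and 27.5% of the ephrin-A sum, whereas Epha3 held 43.8% and 41.3% of the EphA sum.

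Ephrin-B ligands included a pair at nearly the same level. Efnb1, an X-linked ligand of neural crest and skeletal patterning (ENSMUSG00000031217.8, chromosome X, 99136130 to 99148991), had 31.42 and 29.51 TPM. Efnb2, the ligand of arterial endothelium that is also found in caudal somites (ENSMUSG00000001300.11, chromosome 8, 8617434 to 8661242), had 30.01 and 29.74 TPM. These ranges overlapped, and the pair held 89.1% and 88.6% of the ephrin-B sum. Efnb3, a ligand of the spinal cord midline, had 7.51 and 7.59 TPM and overlapped neither of them.

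The carboxy-terminal tail is what sets ephrin-B ligands apart, since it binds PDZ-domain proteins inside the ligand-bearing cell. The last 20 codons before the stop are shown because they compare the abundant pair with Efnb3. The source and build are those of the catalytic loops, and the last 4 codons, which form the PDZ-binding end, are in capitals.
Efnb1 (chrX:99147465-99147524, plus strand): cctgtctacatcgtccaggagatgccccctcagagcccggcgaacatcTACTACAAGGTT
Efnb2 (chr8:8620591-8620650, minus strand): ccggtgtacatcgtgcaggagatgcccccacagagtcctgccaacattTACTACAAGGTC
Efnb3 (chr11:69555863-69555922, minus strand): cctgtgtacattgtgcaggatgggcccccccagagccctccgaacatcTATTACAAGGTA
Efnb1 and Efnb2 had 51 of 60 bases in common and all 20 encoded amino acids. Efnb3 shared 49 bases with Efnb1 and 48 with Efnb2, and 17 of the 20 amino acids with each.

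Latrophilins were all detected. Adgrl2, a latrophilin of synapses (ENSMUSG00000028184.8, chromosome 3, 148815583 to 148990555), had 48.61 and 48.03 TPM and ranked below Epha3 alone. Adgrl3, which binds both FLRT proteins and teneurins, had 17.89 and 19.23 TPM. Adgrl1, a receptor of the spider toxin alpha-latrotoxin, had 16.51 and 17.36 TPM and did not overlap Adgrl3.

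Teneurins spread over a wider range than their receptors. Tenm3, a teneurin of visual and hippocampal wiring (ENSMUSG00000031561.11, chromosome 8, 48227682 to 48843951), had 37.13 and 37.53 TPM. Tenm4, with a role in myelinating cells (ENSMUSG00000048078.12, chromosome 7, 96171246 to 96911093), had 24.52 and 25.94 TPM. Tenm2, a ligand of latrophilins at synapses, had 3.12 and 2.50 TPM. Tenm1, X-linked, fell short of 1 TPM with 0.43 and 0.71 TPM on 42 and 40 counts. Tenm3 and Tenm4 together held 94.6% and 95.2% of the teneurin sum.

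Among the FLRT genes, Flrt3 and Flrt2 had the higher level in replicate 1 and Flrt1 in replicate 2. Flrt3, which also modulates fibroblast growth factor receptors (ENSMUSG00000051379.8, chromosome 2, 140650914 to 140671469), had 41.47 and 36.66 TPM. Flrt2, a ligand of Unc5 receptors (ENSMUSG00000047414.6, chromosome 12, 95692226 to 95785215), had 22.50 and 18.08 TPM. Flrt1 had 5.18 and 5.93 TPM. The ranges of these 3 genes did not overlap.

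In all, 29 of 32 members (90.6%) reached 1 TPM in both libraries, beside 59.9% of 21474 protein-coding genes and 33% of all 43346 genes. The exceptions were Epha6, Epha1 and Tenm1. The median member level was 17.2 TPM, beside 4.4 TPM for all protein-coding genes and 19.9 TPM for the 12868 detected ones. Of the 32 members, 25 lay above the first of these medians and 13 above the second, and 7 reached a mean of 30 TPM. When the members were put in order of mean level, 16 of 31 neighbouring pairs overlapped in their ranges over the libraries. Among the ligands near 30 TPM, Efnb1 overlapped Efna5, Efnb2 and Efna2, whereas Efna5 lay above both Efnb2 and Efna2 without overlap.

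**Figure D1:**
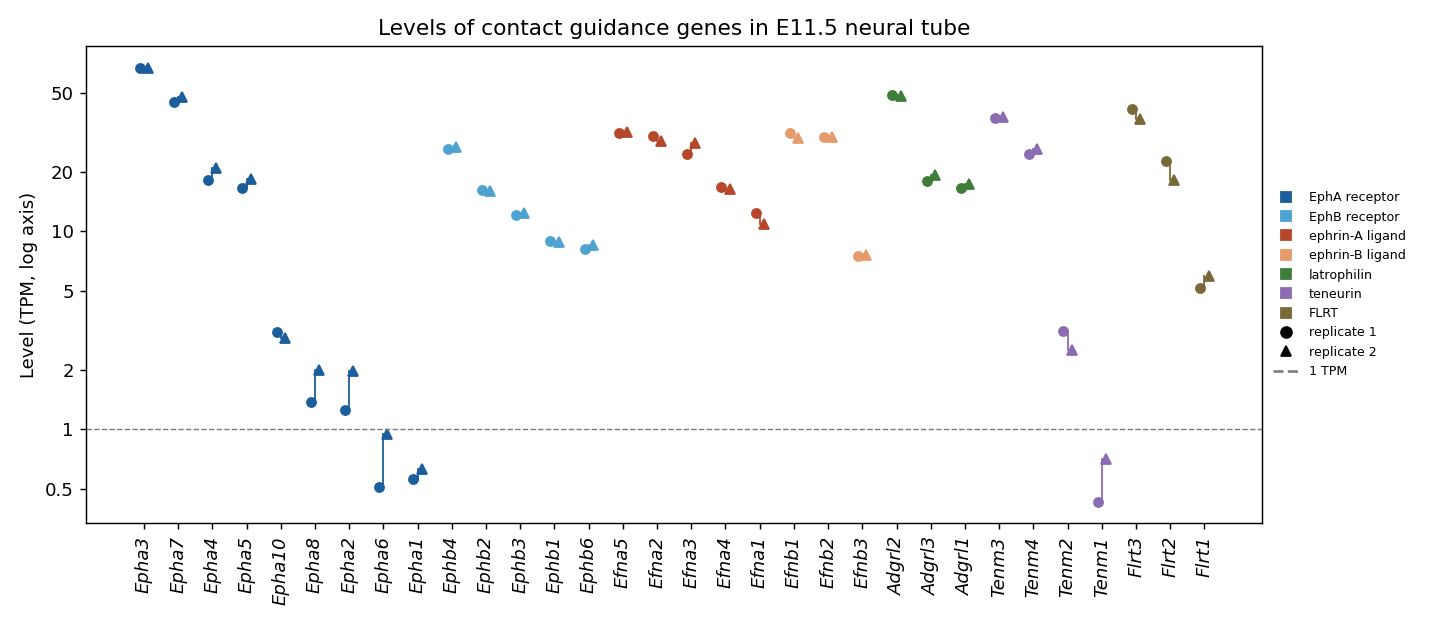
Level of each of the 32 genes in TPM on a log axis, with a circle for replicate 1, a triangle for replicate 2, colours for the class and a dashed line at 1 TPM. Epha3 stands highest at 66.97 and 66.70 TPM, ephrin-A ligands lie between 10.89 and 31.80 TPM, and Epha6, Epha1 and Tenm1 lie below the line in both libraries.

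Summed over each class, EphA receptors exceeded ephrin-A ligands. The EphA sum was 152.97 and 161.63 TPM, and the ephrin-A sum was 115.31 and 115.43 TPM. The log2 ratio of receptors to ligands came to 0.45 ± 0.06 (SD, n = 2; 1.36-fold), with the same direction in both libraries and a size above their spread. Without Epha3 and Efna5, the highest gene of each class, the log2 ratio was 0.11, and taken over class medians it was -3.12. The median EphA receptor had 3.09 and 2.90 TPM, and the median ephrin-A ligand had 24.53 and 27.80 TPM.

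For the B class, receptors and ligands were close. The EphB sum was 71.37 and 72.47 TPM and the ephrin-B sum was 68.94 and 66.84 TPM, with a log2 ratio of 0.08 ± 0.05 (SD, n = 2), or 1.06-fold. Both libraries had the same sign. When transcripts with short or no coding sequence were left out, the log2 ratio was -0.018 ± 0.056, and the libraries differed in sign. The EphB sum was then 65.66 and 67.08 TPM, and the ephrin-B sum 68.36 and 66.08 TPM. Over class medians the log2 ratio was -1.29.

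EphA receptors exceeded EphB receptors by a log2 ratio of 1.13 ± 0.04 (SD, n = 2), or 2.19-fold, in summed TPM. Ephrin-A ligands exceeded ephrin-B ligands by 0.77 ± 0.03, or 1.70-fold. Both differences were larger than the spread between libraries. Over class medians the signs turned, to -2.03 for the receptors and -0.19 for the ligands, where the sums cover 9 EphA and 5 EphB receptors, and 5 ephrin-A and 3 ephrin-B ligands, of unequal level.

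Latrophilins summed to 83.01 and 84.62 TPM. Teneurins summed to 65.20 and 66.68 TPM, and FLRT genes to 69.15 and 60.67 TPM. The log2 ratio of latrophilins to teneurins was 0.35 ± 0.0033 (SD, n = 2), or 1.27-fold, and to FLRT genes 0.37 ± 0.15, or 1.29-fold. Restricting the sums to transcripts with a long coding sequence or absent from M21 took the first log2 ratio to 0.96 and the second to -0.22. Long coding transcripts only, which leaves out a Tenm3 model absent from M21, gave teneurin sums of 16.95 and 17.12 TPM and 1.71 for the first ratio. Class medians gave -0.12 ± 0.30 for latrophilins to FLRT genes, with opposite signs in the libraries.

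**Figure D2:**
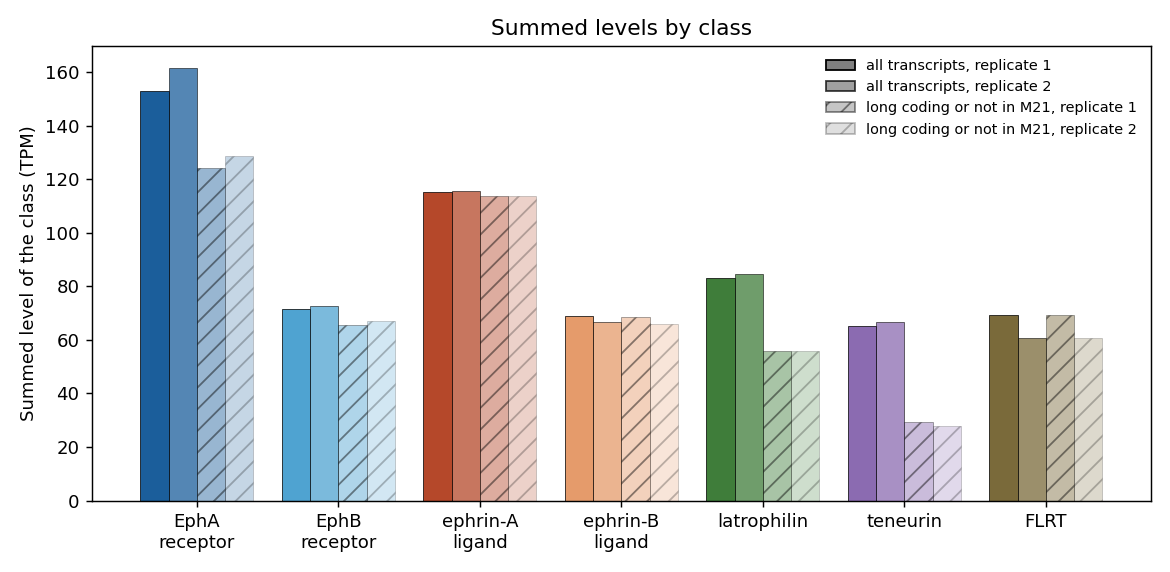
Summed level of each class in TPM, with solid bars for all transcripts and hatched bars for transcripts with a long coding sequence or absent from the M21 annotation, replicate 1 left of replicate 2. The hatched latrophilin bars stand at 55.81 and 55.72 TPM and the hatched teneurin bars at 29.23 and 28.03 TPM, well below their solid bars of 83.01 and 84.62 and of 65.20 and 66.68 TPM, whereas FLRT and ephrin bars scarcely change.

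The difference between solid and hatched bars comes from transcript models with a short coding sequence or none. A transcript is called long coding here where its coding sequence reaches 60% of the longest one of its gene. Hatched EphA bars therefore still hold Epha7 forms without the catalytic loop. Long coding Epha7 transcripts had 25.23 and 26.79 TPM, and those with the HRD codons 18.56 and 19.11 TPM. Short and non-coding models share sequence with the long coding transcripts of their gene. Among those at 10% or more in both libraries, the share of 100-base windows in common varied widely. It ran from 7.64% for ENSMUST00000098518 of Adgrl2 to 97.6% for ENSMUST00000124117 of Adgrl3. Reads from shared stretches cannot be assigned to 1 model by sequence alone, which limits the transcript shares and hatched sums. Of 23 detected members with at least 2 transcripts, all 23 had the same leading transcript, the one with the largest share of TPM, in both libraries, beside 90.2% of 9820 detected genes with at least 2 transcripts. The other 6 detected members have 1 transcript each. In 8 detected members the leader held under 60% of the level in at least 1 library.

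Tenm4 was led by ENSMUST00000138760, a 708-base model with an incomplete coding sequence, at 45.5% and 55.2% of TPM. That model took only 6.60% and 8.29% of the expected counts of the gene, because TPM divides counts by length. The full-length coding transcript ENSMUST00000107162 took 71.9% and 73.1% of counts but 22.4% and 22.1% of TPM. All long coding transcripts of Tenm4 together held 26.6% and 26.2% of its TPM and 84.9% and 86.5% of its counts.

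Tenm3 was led by ENSMUST00000129821, a 7827-base model that M21 no longer holds, at 33.1% and 29.1% of TPM. The 639-base model ENSMUST00000110343 came next at 28.3% and 26.5% of TPM, on 2.98% and 2.95% of counts. Among the latrophilins, Adgrl3 had 32 transcript models, and its leader ENSMUST00000124117 held 15.2% and 21.5% of TPM. That leader has an incomplete coding sequence of 2617 bases, 55.2% of the longest, and so falls just short of long coding. It took 20.3% and 28.2% of the counts of Adgrl3, which the hatched latrophilin bars leave out. Models of Adgrl3 without any coding sequence held 63.0% and 60.1% of its TPM and 36.4% and 35.1% of its counts.

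Epha4 was led by ENSMUST00000188952 at 53.7% and 73.3% of TPM. M21 types this model as a target of nonsense-mediated decay, yet its 2958-base coding sequence has the same length as that of ENSMUST00000027451, the protein-coding model. That protein-coding model is listed at 32.6% and 2.48%. The models are 6315 and 6328 bases long, and by the posterior mean estimates in the same deposited tables they held 39.2% and 39.4%, and 41.2% and 33.0%, so the split between them was not stable.

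Epha5 was led by ENSMUST00000113401 at 31.8% and 33.3%, followed by ENSMUST00000113403 at 30.5% and 32.1% and the retained-intron model ENSMUST00000136775 at 26.5% and 22.5%. Ephb2 was led by ENSMUST00000059287 at 54.5% and 55.9%. Epha10 was led by ENSMUST00000149146 at 55.7% and 52.9%, a model whose 2585-base coding sequence is the longest of the gene but incomplete. Its ENSMUST00000059343, whose 876-base coding sequence is 33.9% of that incomplete one, held 18.3% and 26.0%. Only 24 and 33 counts lay behind that short Epha10 model. Ephb6 also had a short coding model, ENSMUST00000167497, at 11.6% and 16.7%, on 6 and 9 counts.

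Epha7 has transcripts that code for the extracellular and transmembrane part without the kinase domain, a form known to modify responses of the full-length receptor. The full-length leader ENSMUST00000029964, with 2994 coding bases, held 36.4% and 34.4% of Epha7 TPM and 59.1% and 57.0% of its counts. ENSMUST00000149030, which has no coding sequence, held 27.1% and 25.8% of TPM and 20.4% and 19.9% of counts. ENSMUST00000080934, with 1830 coding bases or 61.1% of the longest, held 13.7% and 12.2% of TPM on 296 and 288 counts. It lacks the catalytic loop printed above, and so does ENSMUST00000108194, at 1.23% and 4.04%. Both were singled out after their values had been seen. Their coding ends are shown because they mark where the short forms leave the full-length one, with the bases that each adds of its own in capitals.
Epha7 ENSMUST00000080934 (chr4:28943358-28946250, plus strand, across a splice junction): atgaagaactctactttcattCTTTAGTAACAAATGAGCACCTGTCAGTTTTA
Epha7 ENSMUST00000108194 (chr4:28943358-28966602, plus strand, across a splice junction): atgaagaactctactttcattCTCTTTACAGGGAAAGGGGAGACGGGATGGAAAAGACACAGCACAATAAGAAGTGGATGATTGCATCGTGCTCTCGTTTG
Both share their first 1798 coding bases with the full-length transcript and then go on with 32 and 80 bases of their own.

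**Figure D3:**
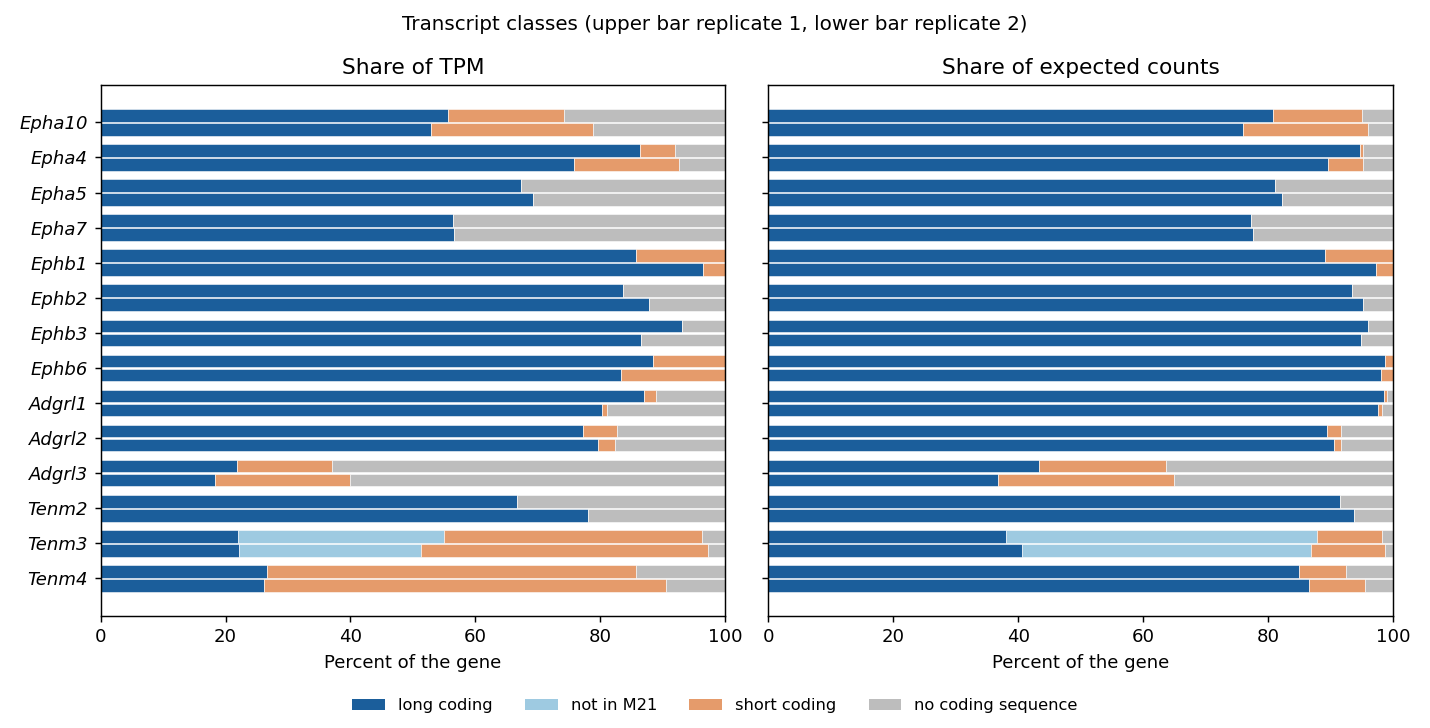
Share of each gene held by 4 classes of transcript, as a percent of TPM (left) and of expected counts (right), with replicate 1 above replicate 2 for each of 14 genes. Long coding transcripts of Tenm4 fill 26.6% and 26.2% of the left bars but 84.9% and 86.5% of the right bars, and models without a coding sequence fill 63.0% and 60.1% of the left bars of Adgrl3.

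Replicate 2 was also set over replicate 1 gene by gene, to show how far the pools differ for these members. Ratios of expected counts were scaled by TMM (trimmed mean of M-values), and a 95% interval gives counting error only. A ratio past 1.5-fold was found for 1 of 32 members, beside 10.8% of the 17219 genes with 10 counts or more in at least 1 library. By direction, that background was 4.79% for genes higher in replicate 2 and 6% for genes higher in replicate 1. It includes genes of low count, and 28 of the 32 members had 100 counts or more in both libraries.

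The member past 1.5-fold was Epha2, with 135 counts in replicate 2 and 83 in replicate 1, a log2 ratio of 0.60 and an interval of 0.21 to 1.03. Counting intervals excluded 0 for 8 of 32 members, beside 30.8% of the same 17219 genes, with 4 members above 0 beside 15.8% and 4 below 0 beside 15%. Beside Epha2, intervals lay above 0 for Epha8 at 0.49, Epha5 at 0.15 and Efna3 at 0.14. They lay below 0 for Flrt2, Flrt3, Efnb1 and Tenm3. Flrt2 had 1934 counts in replicate 2 and 2378 in replicate 1, a log2 ratio of -0.38 with an interval of -0.47 to -0.30. Flrt3 had 2499 counts in replicate 2 and 2732 in replicate 1, a log2 ratio of -0.22. For Efnb1 the log2 ratio was -0.14 and for Tenm3 it was -0.11. For Tenm3 the length-scaled level went the other way, at 37.53 TPM in replicate 2 and 37.13 TPM in replicate 1.

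Marker sums also moved between the pools. As log2 ratios of summed TPM, replicate 2 over replicate 1, motor neuron markers stood at 0.39, neuron markers at 0.20, neural crest markers at 0.20, neural progenitor markers at 0.05 and endothelial markers at 0.05. Muscle markers stood at -0.32, mesenchymal markers at -0.15 and surface ectoderm markers at -0.10. Flrt2 and Flrt3 had the sign of the muscle and mesenchymal markers and Epha5 that of the neuron markers. Signs differed for Epha2, a receptor of epithelia, at 0.60 beside surface ectoderm markers at -0.10. They also differed for Efnb1, a ligand of neural crest and skeletal patterning, at -0.14 beside neural crest markers at 0.20. Efnb1 had the sign of the mesenchymal markers at -0.15. Marker lists moved in both directions, so whether signs match depends on the list set beside a member. Member ratios are of TMM-scaled counts and marker ratios of summed TPM, which are unlike measures. Epha8, Efna3 and Tenm3, whose intervals also excluded 0, were not set beside a marker list. The part of tissue composition in these ratios was not tested.

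**Figure D4:**
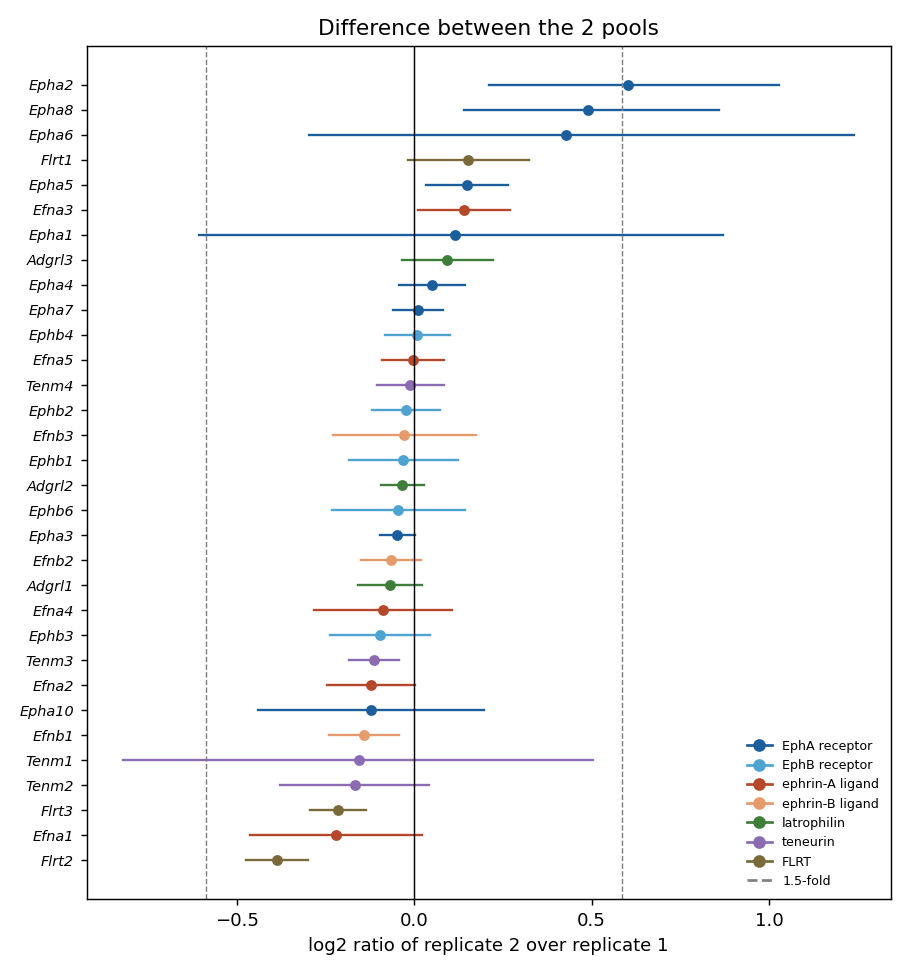
Log2 ratio of replicate 2 over replicate 1 for each member, after TMM scaling, with bars for 95% counting intervals and dashed lines at 1.5-fold. Epha2 lies past the line at 0.60, Flrt2 lies at the other end at -0.38, and Epha3, with the most counts, lies at -0.05.

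Genes that relay these signals inside the cell, cut the ligands or share their receptors were listed as partners. Of 48 such partner genes, 47 were detected, beside 59.9% of protein-coding genes. The median level of the 48 was 21.6 TPM, near the 19.9 TPM of detected protein-coding genes. Forward signalling, downstream of Eph receptors, was represented by 26 genes, all detected, with a median level of 18.5 TPM. The adaptor gene Crk had 102 ± 6.53 TPM and the adaptor gene Grb2 had 66.8 ± 0.955 TPM (SD, n = 2 each). Chn1, whose Rac-inactivating product acts downstream of Epha4 in spinal circuits, had 65.2 ± 4.86 TPM, and the adaptor gene Nck1 had 58.8 ± 1.12 TPM.

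Reverse signalling and PDZ binding had all 10 genes detected and a median level of 23.0 TPM. Sdcbp, which codes for the PDZ protein syntenin, had 297 ± 14.0 TPM. Ngfr, a co-receptor through which ephrin-A ligands signal, had 74.5 ± 4.04 TPM, Gfra1, a receptor for GDNF that acts beside ephrin-A reverse signalling in motor axons, had 31.3 ± 0.884 TPM, and Dvl2 had 29.3 ± 2.13 TPM.

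The 6 shedding genes, all detected, had a median level of 53.6 TPM. The gamma-secretase subunit gene Ncstn had 100.1 ± 6.72 TPM. Mmp2, which codes for a secreted protease, had 55.2 ± 3.55 TPM, and Adam10, whose protease cuts ephrins upon Eph binding, had 52.0 ± 1.1 TPM.

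Of 6 FLRT co-receptor genes, 5 were detected, and the median level over the 6 was 9.29 TPM. The growth factor receptor genes Fgfr2 and Fgfr1 had 67.0 ± 5.41 and 47.5 ± 1.11 TPM. The netrin receptor genes Unc5c and Unc5a had 13.0 ± 1.41 and 5.59 ± 0.523 TPM. Unc5d, the receptor by which cortical neurons are repelled from Flrt2, had 0.70 and 0.87 TPM and was the only partner gene not detected.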

How the data were processed

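Gene and transcript tables on mm10 with GENCODE M4, per the file headers and accompanying notes, gave expected counts (reads estimated by the authors, not whole numbers), TPM and the percent of a gene's TPM held by each transcript, all as deposited by the authors. Aligner, quantifier and strand use: not given in the sources used here. Reads of genes that overlap on opposite strands therefore cannot be told apart. Rows that name no gene, such as spike-ins, took 13.2% and 11.8% of TPM, stay in the deposited scale and were left out of counts of genes. Symbols, coordinates and coding sequences came from GENCODE M21 (GRCm38), and 42462 of 43346 identifiers matched a symbol. The coding sequences were built from M21 for M4 transcripts matched without version.

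Detection was 1 TPM or more in both libraries. Ratios of rounded expected counts used TMM factors (0.9969 and 1.003; edgeR 4.0.16, R 4.3.3), a prior count of 2 and exact binomial intervals. The ratios, not the intervals, were tested on simulated data. Tables were handled with Python 3.11.15, pandas 2.3.3 and Biopython 1.88. The alternatives were posterior mean TPM, counts not divided by length, class medians, leaving out each class's highest gene, other detection thresholds, DESeq2 1.42.0 size factors and leaving out a replicate. The rule for names took all 32 members, the 4 highest genes of each partner and marker list, and leading transcripts under 60%. One gene of the partner lists is not reported here, and most marker lists are given by their sums, with genes named only for endothelium and surface ectoderm. Members and lists were chosen with earlier results of these data known. Replicates were separate pools of embryos. The precision is set by 2 libraries and by 27 and 26 counts at 1 TPM.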

Additional observations from a re-analysis of the deposited data

How the results depend on the processing

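Of 34 alternative values of the class ratios and the share under settings able to move them, 8 stayed within the spread between libraries, 19 moved by more and 7 turned in the sign of the mean. Another 21, from rescaling TPM or leaving out 1 of 2 replicates, could not move past that spread and say nothing about stability. Of the 7, means of -0.018 ± 0.056 (EphB receptors to ephrin-B ligands) and -0.12 ± 0.30 (latrophilins to FLRT genes) had opposite signs in the libraries. The 17 alternative counts were within 1.5 times the main count, and 12 equalled it. Taken over class medians, log2 ratios were -3.12 for EphA receptors to ephrin-A ligands, -1.29 for EphB receptors to ephrin-B ligands, -2.03 for EphA to EphB receptors, -0.19 for ephrin-A to ephrin-B ligands, 0.40 for latrophilins to teneurins and -0.12 for latrophilins to FLRT genes. With transcripts long coding or absent from M21, an alternative chosen after seeing the data, they were 0.15, -0.018, 0.93, 0.76, 0.96 and -0.22 in that order, with 1.71 for latrophilins to teneurins over long coding transcripts only, also chosen after seeing the data, and the share of Eph receptor TPM from Epha10 and Ephb6 was 4.55%. Counts not divided by length gave 1.44, 0.40, 1.24, 0.20, 0.43 and 0.49, and a share of 3.33%. Without the highest gene of each class they were 0.11, 0.28, 0.99, 1.16, 0.31 and 0.46. Posterior mean TPM moved latrophilins to teneurins to 0.33 and the share to 5.21%. Leaving out either replicate gave 0.41 to 0.49, 0.05 to 0.12, 1.1 to 1.16, 0.74 to 0.79, 0.34 to 0.35 and 0.26 to 0.48 in the same order. Detected members numbered 31 at 0.5 TPM and 25 at 5 TPM, and the count past 1.5-fold was 1 under each scaling, filter and prior count tried. Posterior means gave the same leading transcript in 21 members. Leaving out a replicate could not be run for ratios between the libraries. The cause of the moves was not tested, except that class sums rest on few genes and that short models gain in TPM by construction. No paired analysis was possible because there was 1 group. Depth limits Epha1, Epha6 and Tenm1, each under 50 counts.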

Other observations

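Several members lie close together in the genome. Efna1, Efna3 and Efna4 follow each other on one strand of chromosome 3, with 32.8 kb between Efna1 and Efna3 and 10.4 kb between Efna3 and Efna4, and no protein-coding gene lies in either gap. Efna3, in the middle, had the highest level of these 3 ligands, at 24.53 and 27.80 TPM. On chromosome 4, Epha8 and Ephb2 lie 93.4 kb apart with C1qa, C1qc and C1qb between them, at 1.68 ± 0.438 and 16.1 ± 0.12 TPM (SD, n = 2). Chromosome 4 holds 5 of the 14 Eph receptor genes and chromosome 16 holds 3.

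Some members share bases with a gene on the opposite strand. Epha1 shares 236 exon bases with Zyx, a focal adhesion gene at 65.03 and 67.23 TPM, and reads from that stretch cannot be assigned to one strand here. Tenm1 shares 1465 exon bases with Sh2d1a, which had 0.17 TPM in both libraries. Flrt3 lies inside Macrod2, at 38.89 and 36.38 TPM, and Flrt1 inside Macrod1, at 2.45 and 2.61 TPM, but neither shares exon bases with its host.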
